A study of Homo sapiens with 8 samples.

Results

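The contrast described here subtracts one effect from another: the change in RNA level when ARID1A was lost, minus the change when CAPH2 was knocked down, each against its own control. It was computed over the 8 RNA-seq libraries of the series for every gene with enough counts, whatever its response. Most genes named below were then chosen by their effects or differences, so their values are not those of typical genes. Of 57736 gene IDs, 16657 had enough counts to be tested. A positive difference means that a gene stood higher, relative to its control, after ARID1A loss than after CAPH2 knockdown, and a negative difference means the reverse.

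All 8 libraries came from RMG1, an established human line of ovarian clear cell carcinoma, in 4 groups of 2 libraries. Wild-type RMG1 cells (ARID1A WT, CAPH2 WT) were the control for RMG1 cells in which ARID1A had been knocked out by CRISPR (ARID1A KO, CAPH2 WT). Cells labelled shControl (ARID1A WT, CAPH2 WT), which carried a control short hairpin RNA, were the control for cells labelled shCAPH2 (ARID1A WT, CAPH2 KD). So ARID1A was intact in both hairpin groups, CAPH2 was intact in the wild-type and knockout groups, and no library combined the knockout with the knockdown. The labels do not say whether the knockout was a single clone, which hairpin was used, or whether the 2 libraries of a group were grown apart, so p-values reflect how far these libraries differ from each other, possibly for technical reasons alone.

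ARID1A is a large DNA-binding subunit of the BAF form of SWI/SNF, a complex that uses ATP to slide and evict nucleosomes, mostly at enhancers and promoters. The gene is often mutated in ovarian clear cell carcinoma. CAPH2, encoded by NCAPH2, is the kleisin subunit that holds together condensin II, a ring-shaped motor that loops and compacts chromosomes, stays in the nucleus through interphase, and is needed for chromosome segregation. The title of the series concerns how ARID1A affects where condensin II lies on chromosomes, and the difference between the effects asks which RNA changes the losses have in common and which they do not.

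Libraries held 24559547 to 37378691 counts, and 1 count was worth 0.0261 to 0.0413 CPM, counts scaled by library size. The 5 epithelial markers (EPCAM, CDH1, KRT8, KRT18, KRT19) were present in every library, EPCAM at 653 to 915 CPM, and so was PAX8, a Müllerian transcription factor, at 243 to 353 CPM. Markers of other cell types were low: counts were found for 8 of 10 fibroblast, 9 of 12 leukocyte and 5 of 8 endothelial genes. Their summed levels in wild type, knockout, shRNA control and knockdown were 0.543 to 0.785, 1.23 to 1.49, 0.614 to 0.619 and 0.441 to 0.451 CPM for fibroblast genes. For leukocyte genes they were 2.10 to 4.01, 4.96 to 6.27, 3.87 to 4.83 and 2.96 to 3.84 CPM, and for endothelial genes 0.76 to 1.07, 0.209 to 0.219, 0.53 to 0.742 and 0.536 to 0.806 CPM. LUM (0.356 and 0.705 CPM) and PTPRC (1.98 and 2.25 CPM) stood highest in knockout, CD68 reached 3.43 CPM, and TEK 0.909 CPM. COL1A2, COL3A1, CD3E, MS4A1, KDR, CLDN5 and EMCN were at 0 in all 8 libraries. The part of these genes in the results was not tested. Levels are from bulk RNA, in which fewer cells of a kind and less RNA per cell cannot be told apart. The controls themselves were not interchangeable: 3205 genes (19.2%) differed between shRNA control and wild type at an adjusted p under 0.05, so each effect below is read against its own control. Adjusted p-values are from edgeR's quasi-likelihood test with Benjamini-Hochberg adjustment over all genes tested, "called" means under 0.05, and fold changes are log2 values ± SE of the fit.

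RNA of each targeted gene was lowest in the libraries labelled for its loss. NCAPH2 stood at 26.8 and 30 CPM in wild type, 21 and 23.9 in knockout, 24 and 25.8 in shRNA control, and 8.98 and 8.74 in knockdown. It fell by 1.49 ± 0.10 in knockdown (adjusted p = 1.84e-06) and by 0.34 ± 0.09 in knockout (adjusted p = 0.0144). The knockdown libraries lay below all others, and the knockout libraries lay just below wild type. Its knockout call was lost without wild-type replicate 2 (-0.25, adjusted p = 0.0961) or knockout replicate 1 (-0.25, adjusted p = 0.133), whereas the difference of 1.15 ± 0.14 (adjusted p = 8.44e-05) held without any single library. ARID1A RNA was at 8.8 and 12.1 CPM in wild type, 6.66 and 5.61 in knockout, 9.87 and 9.69 in shRNA control, and 9.02 and 9.16 in knockdown. It was lower in knockout by 0.77 ± 0.16 on the log2 scale (adjusted p = 0.00274), and an edited gene can still be transcribed, so its RNA is a weak check of that label. The difference for ARID1A, -0.67 ± 0.22 (adjusted p = 0.0443), was lost without 6 of the 8 libraries, moving to -0.41 (adjusted p = 0.175) without wild-type replicate 2, and to -0.55 without knockout replicate 2 (adjusted p = 0.16). Leaving out either shRNA control library or either knockdown library kept the value near its size (-0.65 to -0.68) but not the call (adjusted p = 0.0977 to 0.116).

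Loss of ARID1A changed 5751 genes (34.5% of those tested), 2794 higher (16.8%) and 2957 lower (17.8%). Knockdown of CAPH2 changed 2639 (15.8%), 1270 higher (7.62%) and 1369 lower (8.22%). The effects themselves differed in 4381 genes (26.3%): the knockout effect was the higher in 2050 (12.3%) and the lower in 2331 (14%). In 1588 of them the effects differed at least 2-fold. Over all genes the effects correlated little, with Pearson's r = 0.062 and Spearman's rho = 0.0485 across 16657 genes, which are not independent replicates. Of all genes, 52.5% had effects of the same sign. Over the 1518 genes called in both, Pearson's r was 0.206 and Spearman's rho 0.0368. The knockout effects had an SD of 1.13 and the knockdown effects of 0.79 on the log2 scale. The number of genes called in the knockdown rested on each library of its pair of groups, falling to 1360 without shRNA control replicate 1, 1485 without shRNA control replicate 2, 1524 without knockdown replicate 1 and 1499 without knockdown replicate 2.

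Over all genes tested, 15.8% were called in knockdown and 34.5% in knockout. Both effects were called in 1518 genes, which is 26.4% of the knockout calls and 57.5% of the knockdown calls. Of these, 808 (4.85% of genes tested) moved the same way, 343 up and 465 down, and 710 (4.26%) moved in opposite directions, 357 up in knockout and down in knockdown and 353 the reverse. The shared genes are 14% of the knockout calls and 30.6% of the knockdown calls, and the opposite genes are 12.3% and 26.9%. The balance was close at every size: with both effects at least 1.5-fold there were 235 shared and 214 opposite genes, and with both at least 2-fold there were 94 and 99. Within the shared genes the difference was called in 280, the knockout effect being the larger in 220 and the knockdown effect in 60. The class counts depended on the small groups. Without shRNA control replicate 1, shRNA control replicate 2, knockdown replicate 1 or knockdown replicate 2 there were, in that order, 153, 173, 171 and 184 shared up, 273, 301, 298 and 300 shared down, 204, 210, 225 and 211 opposite with knockout up, and 211, 218, 228 and 224 opposite with knockout down. Without knockout replicate 2, 213 were shared up. Most genes of each class left it in at least 1 of the 8 fits with a library left out. The difference was called in all 710 opposite genes with all libraries in the fit. That was nearly fixed by the choice of the class, because there the difference adds the sizes of 2 called effects.

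**Figure D1:**
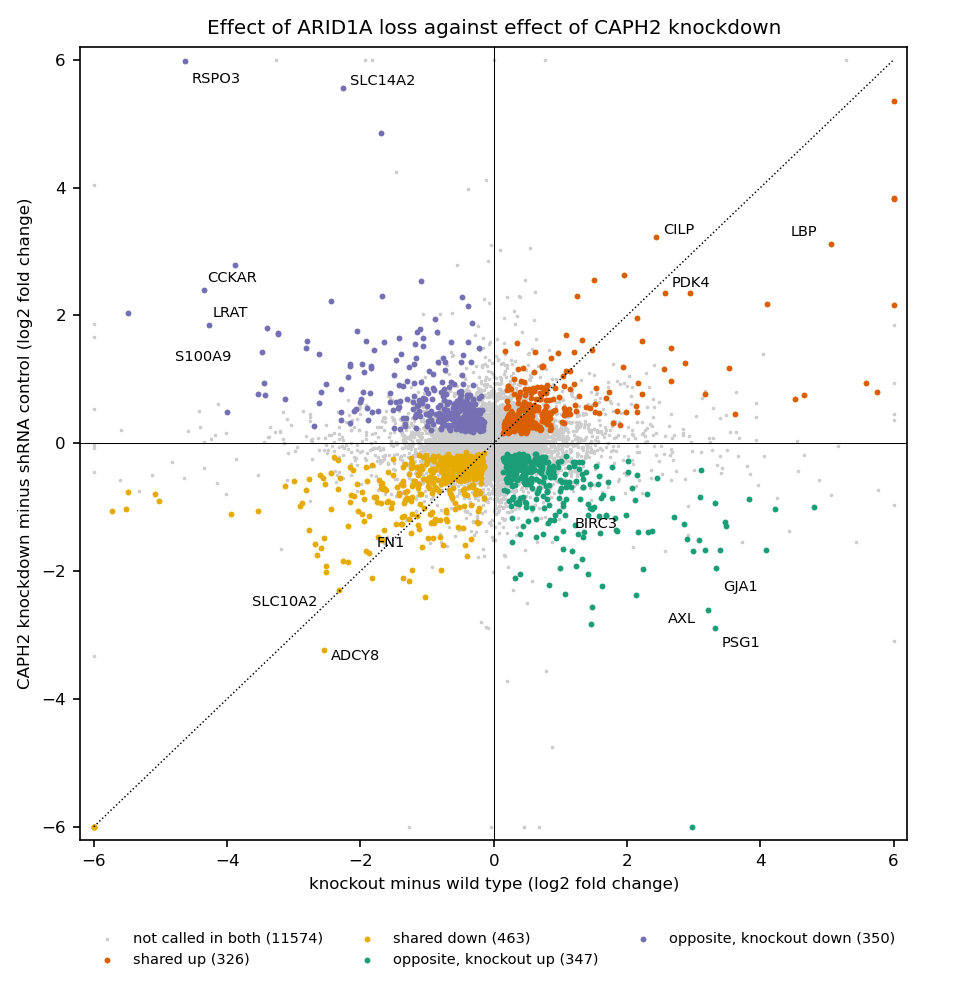
Each point is a gene with a mean of at least 1 CPM, with the knockout effect on the horizontal axis and the CAPH2 knockdown effect on the vertical axis (log2 fold changes, drawn at ±6 where larger). Colours mark genes called in both, the dotted line marks equal effects, and the 4 coloured classes fill all 4 quadrants in similar numbers (326 shared up, 463 shared down, 347 and 350 opposite).

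The genes called in opposite directions with the widest gaps included a gap junction protein, a receptor tyrosine kinase and placental glycoproteins among those up in knockout. GJA1, which encodes connexin 43, was at 91.6 and 76.7 CPM in wild type, 864 and 839.7 in knockout, 79.3 and 75.5 in shRNA control, and 19.2 and 20.7 in knockdown. The controls sat together, the knockout libraries far above them and the knockdown libraries below them. Lack of overlap with the own control in each called effect was a condition for naming GJA1. The same holds for the other opposite, shared and single-effect genes chosen by size, so that separation is not a result. GJA1 rose by 3.34 ± 0.08 in knockout and fell by 1.96 ± 0.09 in knockdown, a difference of 5.30 ± 0.12 (adjusted p = 3.44e-10). AXL, the receptor for GAS6, was at 0.496 and 0.652 CPM in wild type, 5.78 and 4.96 in knockout, 0.681 and 0.726 in shRNA control, and 0.126 and 0.0967 in knockdown. Its control levels again lay close together, and the difference was 5.83 ± 0.51 (adjusted p = 7.33e-06). PSG1, a pregnancy-specific glycoprotein, was at 3.1 and 2.35 CPM in wild type and 26.2 and 28.3 in knockout, against 1.05 and 0.894 in shRNA control and 0.189 and 0.0645 in knockdown (difference 6.21 ± 0.42, adjusted p = 8.33e-07). PSG8 showed a difference of 5.75 ± 0.41, but PSG genes are near-identical copies whose reads the counting could split, so values of single members are uncertain. ROBO2, a receptor for SLIT guidance cues, and NLGN1, a synaptic adhesion protein, had differences of 5.80 ± 0.31 and 5.25 ± 0.32, most of it from rises in knockout (4.81 ± 0.22 and 4.22 ± 0.23). The falls in knockdown of ROBO2 (from 2.23 and 2.74 CPM to 1.39 and 1.10 CPM), NLGN1 (-1.02 ± 0.22 on the log2 scale) and PSG8 (-1.66 ± 0.39) each lost their call when a library was left out. ROBO2 moved to -0.84 without shRNA control replicate 2 (adjusted p = 0.0654) or knockdown replicate 2 (adjusted p = 0.0647). NLGN1 moved to -0.90 without shRNA control replicate 1 (adjusted p = 0.0694) and -0.99 without knockdown replicate 1 (adjusted p = 0.0573). PSG8 moved to -1.52 without shRNA control replicate 2 (adjusted p = 0.0883) and -1.20 without knockdown replicate 2 (adjusted p = 0.162).

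The 6 genes with the widest gaps down in knockout and up in knockdown encode a transporter, a WNT amplifier, a receptor, an enzyme of retinol storage, a protease and a protease inhibitor. SLC14A2, a urea transporter, was at 1.69 and 1.67 CPM in wild type, 0.466 and 0.235 in knockout, 0.805 and 0.614 in shRNA control, and 34.8 and 31.9 in knockdown. The knockdown libraries stood far above the other 6, and the knockout libraries were the lowest. It fell by 2.26 ± 0.29 in knockout and rose by 5.55 ± 0.19 in knockdown (difference -7.81 ± 0.35, adjusted p = 3.27e-08). RSPO3, a secreted R-spondin that amplifies WNT signals, was at 1.65 and 0.579 CPM in wild type, 0.0548 and 0.0261 in knockout, 0.155 and 0.447 in shRNA control, and 18.6 and 20.7 in knockdown. The knockout libraries held 3 counts of RSPO3 against 56 in wild type, a ratio of 26.9 (95% counting interval 8.76 to 134.6), and the rise in knockdown was 5.98 ± 0.39. CCKAR, the cholecystokinin A receptor, was at 4.42 and 4.45 CPM in wild type, 0.301 and 0.131 in knockout, 3.37 and 2.71 in shRNA control, and 15.4 and 16.7 in knockdown (difference -6.75 ± 0.34, adjusted p = 8.04e-08). LRAT, which esterifies retinol for storage, followed the same order, at 4.46 and 3.44, 0.247 and 0.157, 3.62 and 4.69, and 15.8 and 14.3 CPM (difference -6.12 ± 0.35). The controls overlapped for LRAT, while for CCKAR wild type stood above the shRNA control. In both genes the knockout lay below all controls and the knockdown above them. KLK7, a kallikrein protease, had a difference of -5.21 ± 0.34. SPINK1, a trypsin inhibitor, held 1 count in the knockout libraries against 13 in wild type (ratio 18.8, 95% counting interval 2.82 to 797.5) and rose by 2.79 ± 0.30 in knockdown.

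**Figure D2:**
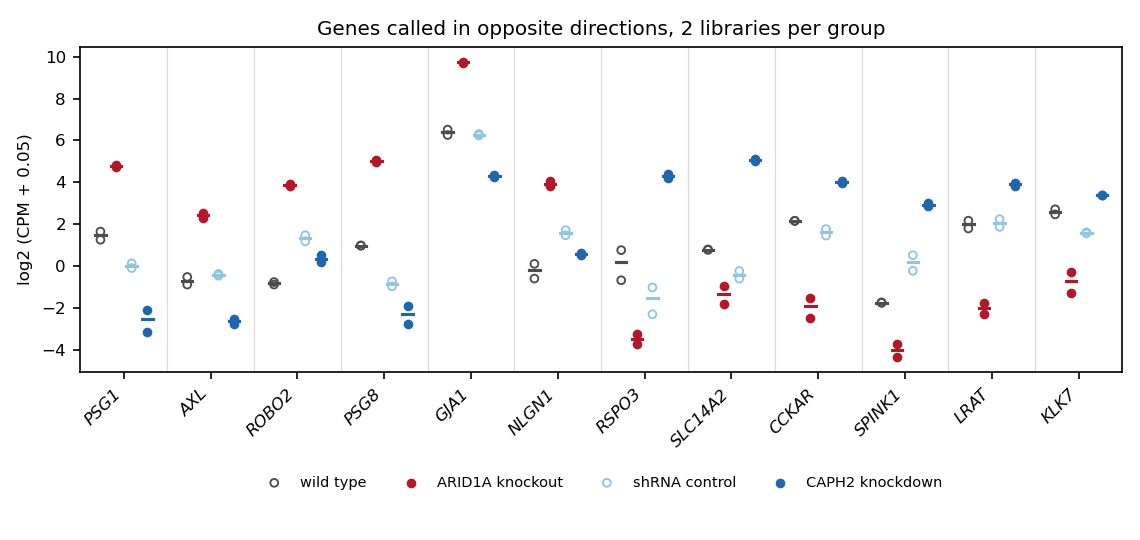
Level in each library, as log2 of CPM plus 0.05, for the 12 named genes called in opposite directions. Open circles are controls, filled circles the knockout or knockdown, and bars are group means. GJA1 lies at 864 and 839.7 CPM in knockout and at 19.2 and 20.7 CPM in knockdown, and RSPO3 and SLC14A2 show the reverse order.

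Of the 12 shared genes named here, 6 rose and 6 fell in both, and for the 6 described first the difference was not called. PDK4, the kinase that switches off pyruvate dehydrogenase, was at 15 and 13.5 CPM in wild type, 84.4 and 85.3 in knockout, 13.8 and 15.6 in shRNA control, and 73.6 and 76.6 in knockdown. Controls overlapped, and both perturbed groups stood well above them. PDK4 rose by 2.57 ± 0.08 and 2.35 ± 0.08, and the difference of 0.22 had a 95% interval of -0.02 to 0.46 (adjusted p = 0.169); it was 0.15 without wild-type replicate 2 and 0.13 without shRNA control replicate 2. SLC10A2, the apical sodium-dependent bile acid transporter, was at 299 and 294 CPM in wild type, 59.5 and 59.1 in knockout, 181 and 179 in shRNA control, and 37.1 and 36.2 in knockdown. It fell by 2.32 ± 0.05 and by 2.30 ± 0.05 from control levels that themselves differed, and the difference had an interval of -0.19 to 0.13 (adjusted p = 0.841). FN1, the matrix protein fibronectin and one of the most abundant transcripts here, was at 3818 and 4304 CPM in wild type, 1209 and 1023 in knockout, 2336 and 2234 in shRNA control, and 699 and 686 in knockdown. FN1 fell by 1.86 ± 0.08 and by 1.72 ± 0.08, with an interval of the difference of -0.38 to 0.09. Its difference was small throughout, between -0.27 without knockout replicate 1 and -0.03 without knockout replicate 2. EMP1, an epithelial membrane protein, fell by 2.19 ± 0.14 and by 1.86 ± 0.15 (interval of the difference -0.78 to 0.11). ADCY8, an adenylyl cyclase, fell by 2.54 ± 0.20 and by 3.24 ± 0.32. SLC2A2, the glucose transporter GLUT2, fell by 2.52 ± 0.23 and by 1.92 ± 0.30. For both, which effect was larger turned on the knockdown libraries: the ADCY8 difference of 0.70 was 1.67 without knockdown replicate 1 (adjusted p = 0.0409) and 0.13 without knockdown replicate 2, and the SLC2A2 difference of -0.60 was -1.10 (adjusted p = 0.034) and 0.16.

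Among the other 6 the difference was called for SLC7A8, AQP1 and LBP. SLC7A8, a neutral amino acid transporter, was at 144 and 139 CPM in wild type, 32.9 and 26.2 in knockout, 212 and 199 in shRNA control, and 55 and 60.2 in knockdown. It fell by 2.26 ± 0.09 and by 1.84 ± 0.09. The SLC7A8 difference of -0.43 ± 0.13 (adjusted p = 0.0287) was lost without knockout replicate 2 (-0.27, adjusted p = 0.115), shRNA control replicate 1 (-0.47, 0.0525), shRNA control replicate 2 (-0.38, 0.107) or knockdown replicate 2 (-0.36, 0.117). AQP1, a water channel, and LBP, which binds bacterial lipopolysaccharide, came up from near 0 in both perturbed groups. AQP1 was at 0.124 and 0 CPM in wild type, 7.32 and 7.65 in knockout, 0.0619 and 0.251 in shRNA control, and 2.49 and 2.19 in knockdown. Its knockout-to-wild-type ratio was 129.3 (95% counting interval 44.02 to 629), and it rose by 3.83 ± 0.47 in knockdown. LBP rose by 5.05 ± 0.38 and by 3.12 ± 0.35. For LBP the difference of 1.94 was not called without wild-type replicate 2, either knockout library, shRNA control replicate 1 or knockdown replicate 1 (1.44 to 2.01), and for AQP1 without wild-type replicate 2, either knockout library, shRNA control replicate 2 or either knockdown library (1.76 to 3.19). Without wild-type replicate 1 the AQP1 difference was 7.13. CILP, a cartilage matrix protein, rose by 2.44 ± 0.27 and by 3.22 ± 0.18 (interval of the difference -1.57 to 0.01). The CILP difference of -0.78 was -0.34 without wild-type replicate 1. KRT222, a keratin-like gene, was at 0 in both wild-type libraries and at 0.548 and 0.783 CPM in knockout, at least 11.6-fold higher, and went from 0.217 and 0 in shRNA control to 4.13 and 4.68 in knockdown. TRIM34, an antiviral TRIM protein, rose by 2.95 ± 0.40 and by 2.36 ± 0.33, and it overlaps a readthrough transcript, so its value is uncertain.

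**Figure D3:**
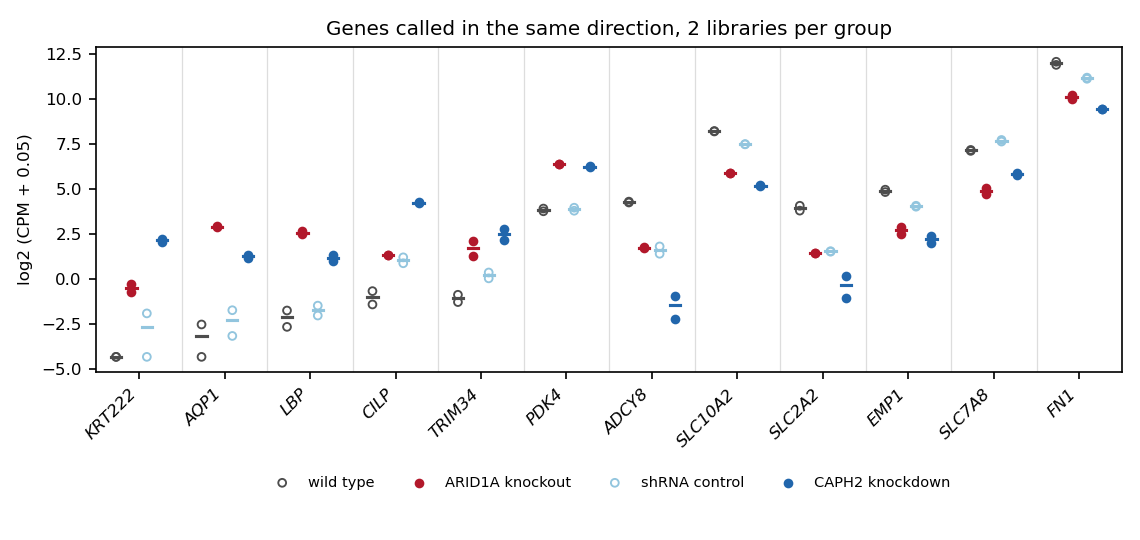
Level in each library, as log2 of CPM plus 0.05, for the 12 named genes called in the same direction, drawn with the same marks for groups. PDK4 moves from 13.5 to 15.6 CPM in the controls to 73.6 to 85.3 CPM in the perturbed groups, and FN1 is lowest in the knockdown, at 699 and 686 CPM.

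The largest class of differences belonged to genes called in knockout and not in knockdown: 2452 genes, 1130 up and 1322 down in knockout. CDH2, the mesenchymal cadherin N-cadherin, was at 0.0413 and 0 CPM in wild type, 7.07 and 7.55 in knockout, 0.588 and 0.475 in shRNA control, and 0.441 and 0.0967 in knockdown. Its knockout-to-wild-type ratio was 379 (95% counting interval 67.73 to 15000), from a single wild-type count. C2orf80, PRSS35 (a protease-like secreted protein) and SRGN (the proteoglycan serglycin) were at 0 in both wild-type libraries and at least 130.5-fold, 97.7-fold and 77.4-fold higher in knockout. The SRGN difference lost its call without shRNA control replicate 1 (adjusted p = 0.0507). LYPD1 was at 1.98 and 1.7 CPM in wild type, 0 and 0 in knockout, 1.7 and 1.68 in shRNA control, and 1.86 and 1.35 in knockdown, at least 45.7-fold lower in knockout. PDE10A, a cyclic nucleotide phosphodiesterase, had a wild-type-to-knockout ratio of 273.5 (95% counting interval 75.2 to 2267), and FGB, the fibrinogen beta chain, one of 54.9 (14.67 to 461.1), while in the hairpin groups their levels overlapped or nearly did. PAK3, a p21-activated kinase, was at 6.7 and 5.03 CPM in wild type, 0 and 0.104 in knockout, 0.124 and 0.419 in shRNA control, and 0.378 and 0.161 in knockdown, so it was low in all groups but wild type.

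The reverse class, called in knockdown and not in knockout with the difference called, held 659 genes, 332 up and 327 down in knockdown. SLC28A3, a nucleoside transporter, was at 1.45 and 1.05 CPM in wild type, 1.04 and 0.862 in knockout, 2.32 and 2.71 in shRNA control, and 40.8 and 39.1 in knockdown. Only the knockdown pair stood apart, with a rise of 3.98 ± 0.14 and a difference of -4.36 ± 0.28 (adjusted p = 6.16e-07). FZD1, a WNT receptor, was at 1.16 and 1.05, 0.63 and 0.862, 1.21 and 1.28, and 8.83 and 8.48 CPM in the same order (difference -3.35 ± 0.34). PLCL1 held 1 count in the shRNA control libraries against 332 in knockdown, a ratio of 360.5 (95% counting interval 64.26 to 14280); its difference was not called without wild-type replicate 2 (adjusted p = 0.99). BCL2L15, a BCL2 family member, rose by 4.12 ± 0.56 in knockdown, and its difference of -4.24 was -2.53 without wild-type replicate 2 (adjusted p = 0.0711). In the other direction KCNJ2, an inward-rectifier potassium channel, was at 7.98 and 8.87 CPM in wild type, 7.13 and 8.43 in knockout, 5.6 and 5.45 in shRNA control, and 0.914 and 0.58 in knockdown (difference 2.76 ± 0.28, adjusted p = 2.55e-05). LTB, lymphotoxin beta, fell by 2.15 ± 0.34 in knockdown (difference 2.73 ± 0.43). PSG3 held 3 counts in knockdown against 46 in shRNA control (ratio 14.1, 95% counting interval 4.54 to 70.98). CCR6, a chemokine receptor named after its values were seen, was at 0 in all 6 other libraries and at 27.6 and 24.2 CPM in knockdown, at least 588.5-fold above its control. No difference could be called for it, because a gene at 0 in both wild type and knockout has no fitted effect there.

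Gene lists were described by how many members were called and by their median, beside the same values over all genes (26.3% called, median difference -0.0016). The share of tested members with a called difference ran from 83.3% for basement membrane and integrins, 70.8% for NRF2 targets and 65.4% for NF-kB and inflammatory cytokines down to 21.2% for cytosolic ribosomal proteins, 17.6% for nuclear subunits of oxidative phosphorylation and 13% for small nucleolar RNAs, so the housekeeping lists lay below the background in share called. Protein-coding genes as a whole stood at 30.9%. Near that share were DNA replication (28.6%), MHC class I (31.6%), condensin and cohesin (32%), and nucleic acid sensing and polycomb (33.3% each). Counts of called members in those lists are therefore close to the background. The summed level of small nucleolar RNAs still moved in opposite directions. It was 10170 and 9922 CPM in wild type, 16370 and 14540 in knockout, 17320 and 17300 in shRNA control, and 10670 and 8875 in knockdown. Their median difference was 0.30, and what this shift reflects was not tested. Members of the shared class that are named from a list below were chosen after their values were seen, while opposite members of the lists discussed in detail are named by rule.

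**Figure D4:**
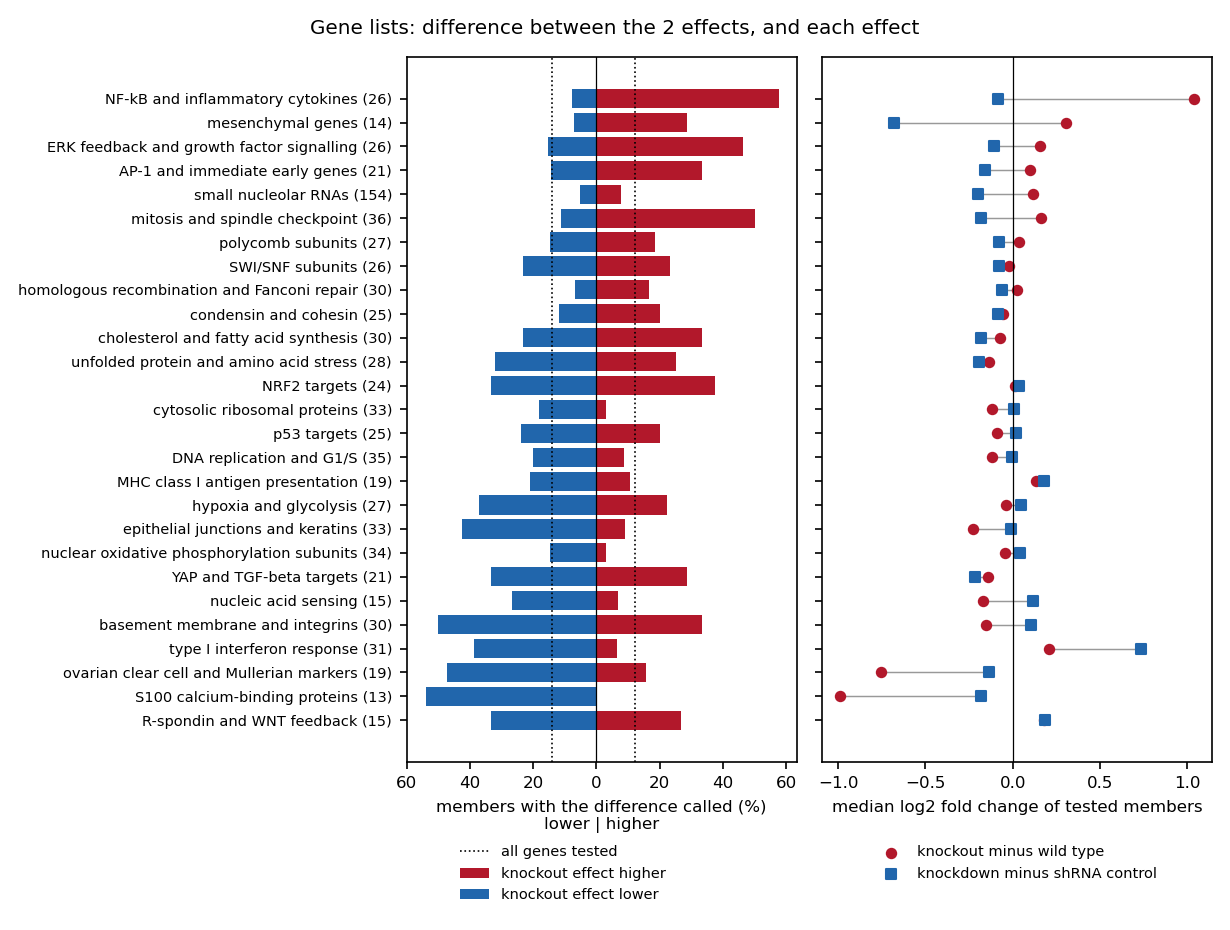
Left, percent of each list's tested members (number in brackets) with a called difference, drawn to the right where the knockout effect was higher and to the left where it was lower, with dotted lines at the 12.3% and 14% of all genes. Right, each list's median knockout effect (circles) and median knockdown effect (squares) in log2 units; NF-kB and cytokine genes (1.04 against -0.09) and type I interferon genes (0.21 against 0.74) lie on opposite sides of the plot's order.

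Most mitotic genes with a called difference had the higher effect in knockout. Of 36 members tested, which include cyclins, kinetochore and spindle checkpoint proteins and kinesins, 16 were called up and 4 down in knockout, and 16 were called in knockdown, all of them down. The difference was called in 22, with the knockout effect higher in 18 and lower in 4, and the list's median difference was 0.28. The opposite class held 8 of them, all up in knockout: UBE2C, which helps the anaphase-promoting complex tag its targets, ANLN (anillin) and PRC1, which organise the cleavage furrow and midzone, CCNB1 (cyclin B1), BIRC5 (survivin), CENPF, KIF2C and BUB1. Their promoters are shown through ANLN, because its window holds the cell cycle gene homology region (CHR, searched as TTTGAA on both strands), an element through which the DREAM and MMB complexes act on late cell cycle genes. The window is the 250 bases before the RefSeq start (build GRCh38.p14, chr7:36389612-36389861, plus strand), 5′ to 3′, with its 2 adjoining matches, 1 on each strand, in capitals, 26 and 20 bases before the start.
ANLN: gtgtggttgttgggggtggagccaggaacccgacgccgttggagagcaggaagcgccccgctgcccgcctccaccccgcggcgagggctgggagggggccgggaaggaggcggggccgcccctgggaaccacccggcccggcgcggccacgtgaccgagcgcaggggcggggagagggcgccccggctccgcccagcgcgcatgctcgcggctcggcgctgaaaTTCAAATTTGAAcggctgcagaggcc
The CHR letters stood in the window of 15 of the 30 list members with a RefSeq promoter (50%), against 8.57% of the 11174 promoters of tested genes, and in 2 of the 6 opposite members with one, ANLN and PRC1. ANLN was at 320 and 295 CPM in wild type, 387 and 400 in knockout, 288 and 287 in shRNA control, and 246 and 243 in knockdown, so the knockout libraries were the highest and the knockdown libraries the lowest, with no overlap. ANLN rose by 0.36 ± 0.05 and fell by 0.24 ± 0.05 (difference 0.60 ± 0.08, adjusted p = 0.000149). UBE2C had the widest gap, at 32.4 and 31.4, 48.3 and 53.6, 38.7 and 39.5, and 32.1 and 30.5 CPM in the same order (difference 1.00 ± 0.10, adjusted p = 2.32e-05). The other 6 had differences of 0.40 (BUB1) to 0.54 (CCNB1). With a library left out the differences of these 8 genes lay between 0.355 and 1.07, a direction nearly fixed by their choice as opposite genes. Their place in the opposite class did not hold. The fall in knockdown was not called for any of the 8 without shRNA control replicate 1, for 4 without shRNA control replicate 2, for 5 without knockdown replicate 1 and for 7 without knockdown replicate 2, with values between -0.34 and -0.17 and adjusted p up to 0.171. The rise in knockout was not called for 4 of them (BUB1, CCNB1, CENPF and KIF2C) without knockout replicate 2, and for CENPF and KIF2C in further fits, with adjusted p up to 0.304. MKI67, which encodes the Ki-67 protein, and CDC25B, a phosphatase that activates cyclin-dependent kinases, were among the 4 members whose knockout effect was the lower (differences -0.47 and -0.62). MKI67 was at 377 and 382 CPM in wild type, 211 and 192 in knockout, 332 and 335 in shRNA control, and 235 and 254 in knockdown, and it fell in both (by 0.91 ± 0.06 and by 0.45 ± 0.06). Its neighbours on the chromosome had a median difference of -0.74, and their part in the result was not tested. TOP2A, the mitotic topoisomerase, listed with the condensins, was at 1418 and 1365 CPM in wild type, 1632 and 1640 in knockout, 1309 and 1292 in shRNA control, and 1128 and 1099 in knockdown. TOP2A rose by 0.23 ± 0.04 and fell by 0.22 ± 0.04; its fall was not called without shRNA control replicate 1 (-0.22, adjusted p = 0.0566) or knockdown replicate 2 (-0.20, adjusted p = 0.0548).

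DNA replication genes did not follow the mitotic ones. Of 35 members 3 were called up and 12 down in knockout, and 3 up and 4 down in knockdown, and the difference was called in 10 (28.6%), higher in 3 and lower in 7. Homologous recombination and Fanconi repair genes stood at 23.3% called. Both shares were near the 26.3% of all genes tested. Of 25 p53 targets the difference was called in 11, higher in 5 and lower in 6.

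Type I interferon genes rose after CAPH2 knockdown and split after ARID1A loss. These genes are induced by interferon or by sensors of foreign nucleic acid, and STAT2 and IRF9 belong to the factor that binds their promoters. Of 31 members tested, 17 were called up and 1 down in knockdown, and 9 up and 8 down in knockout, and the median effects were 0.74 and 0.21. The difference was called in 14, with the knockout effect higher in 2 and lower in 12 (median -0.51). The opposite class held 5, all down in knockout (IFI6, PARP9, DTX3L, IRF9 and IFITM3), and the shared up class held 6, among them IFITM1, SAMD9, IFIT2, IFIT3 and ISG15. The promoters of IFI6, an inhibitor of viral replication that went opposite ways, and IFITM1, an antiviral membrane protein that rose in both, are shown because both hold the interferon-stimulated response element (ISRE, searched on both strands as GAAA, any 2 bases, then GAAA). The windows are the 250 bases before the RefSeq start in GRCh38.p14 (IFI6 at chr1:27672193-27672442, minus strand; IFITM1 at chr11:313790-314039, plus strand), 5′ to 3′, with matches in capitals.
IFI6: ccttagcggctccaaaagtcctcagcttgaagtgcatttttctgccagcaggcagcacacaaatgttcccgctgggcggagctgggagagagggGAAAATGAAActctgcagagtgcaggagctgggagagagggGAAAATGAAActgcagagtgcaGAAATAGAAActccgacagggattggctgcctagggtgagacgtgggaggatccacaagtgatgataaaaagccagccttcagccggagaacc
IFITM1: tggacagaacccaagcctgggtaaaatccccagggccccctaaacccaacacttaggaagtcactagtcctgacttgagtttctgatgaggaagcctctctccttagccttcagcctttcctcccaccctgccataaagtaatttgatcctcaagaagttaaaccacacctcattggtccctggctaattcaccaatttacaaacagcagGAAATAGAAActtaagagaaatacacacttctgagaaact
IFI6 had 3 matches, 156, 115 and 93 bases before the start, and IFITM1 had 1, 40 bases before it. The letters stood in 14 of 24 list members with a RefSeq promoter (58.3%), against 2.34% of promoters of tested genes. They stood in 2 of the 5 opposite members (IFI6 and IFITM3) and in 4 of the 4 shared members with one (IFIT3, IFITM1, ISG15 and SAMD9), so the motif was present in both kinds of response. IFI6 was at 19.7 and 13.8 CPM in wild type, 4.11 and 3.21 in knockout, 15.9 and 16.9 in shRNA control, and 32.8 and 34.8 in knockdown. Its controls overlapped, with knockout below and knockdown above: it fell by 2.19 ± 0.17 and rose by 1.04 ± 0.14 (difference -3.23 ± 0.22, adjusted p = 1.12e-06). IFITM1 was at 2.23 and 1.96 CPM in wild type, 9.76 and 9.74 in knockout, 3 and 3.55 in shRNA control, and 9.58 and 10.2 in knockdown. It rose by 2.22 ± 0.16 and by 1.59 ± 0.15, and the difference of 0.63 was not called (95% interval 0.14 to 1.11, adjusted p = 0.057).

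PARP9 and DTX3L, partners in protein modification that take part in interferon signalling, shared the pattern of IFI6. PARP9 was at 53.6 and 46.5 CPM in wild type, 31.8 and 32.4 in knockout, 40 and 41 in shRNA control, and 79.7 and 78 in knockdown (difference -1.60 ± 0.10, adjusted p = 5.9e-07). DTX3L had a difference of -1.25 ± 0.10. IRF9 fell by 0.55 ± 0.15 and rose by 0.67 ± 0.13. Its calls were lost without wild-type replicate 1 (-0.47, adjusted p = 0.0621), knockout replicate 2 (-0.40, 0.11), shRNA control replicate 2 (0.59, 0.0568) or knockdown replicate 1 (0.59, 0.0511). IFITM3 fell by 0.40 ± 0.12 and rose by 0.76 ± 0.11, and the fall was not called without wild-type replicate 2 (-0.35, adjusted p = 0.128), knockout replicate 1 (-0.40, 0.0939) or knockout replicate 2 (-0.40, 0.103). ISG15, a ubiquitin-like modifier, rose by 0.31 ± 0.09 and by 1.01 ± 0.09, more in knockdown (difference -0.70 ± 0.13, adjusted p = 0.00193). MX1, a GTPase against viruses, was at 0.207 and 0.616 CPM in wild type, 0.85 and 0.392 in knockout, 0.928 and 0.949 in shRNA control, and 7.66 and 8.03 in knockdown. MX1 rose by 3.06 ± 0.35 in knockdown, and its difference of -2.51 was -1.49 without wild-type replicate 2 (adjusted p = 0.216). Among 15 genes of nucleic acid sensing the difference was called in 5 (33.3%), and IFI16 and RIGI were opposite, down in knockout (-1.42 ± 0.16 and -0.47 ± 0.08) and up in knockdown (0.57 ± 0.15 and 0.40 ± 0.08). The rise of IFI16 was not called without any one of the 4 hairpin libraries (0.49 to 0.64, adjusted p = 0.0663 to 0.169), nor that of RIGI without shRNA control replicate 2 (0.34, 0.0741) or knockdown replicate 1 (0.32, 0.0772). MHC class I genes, which display peptides to T cells, had a called difference in 6 of 19 (31.6%), with the knockout effect higher in 2 and lower in 4. The shares of the sensing and MHC lists were near the 26.3% of all genes tested and the 30.9% of protein-coding genes. The shared up class held 4 of the 19, among them HLA-F, B2M and PSME2, the shared down class 1, and the opposite classes 0. B2M rose by 0.42 ± 0.05 and by 0.40 ± 0.05 (95% interval of the difference -0.14 to 0.17). NLRC5, the transactivator of these genes, fell in both (by 0.49 ± 0.10 and by 0.55 ± 0.10).

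NF-kB targets and cytokines showed the opposite tilt. NF-kB is a factor released when its inhibitor IκBα, the product of NFKBIA, is degraded, and it induces chemokines, cytokines and its own inhibitors. Of 26 members tested, 16 were called up and 1 down in knockout, and 6 up and 7 down in knockdown. The difference was called in 17, with the knockout effect higher in 15 and lower in 2, and the median difference was 1.23. The opposite class held 5, all up in knockout (BIRC3, TNF, IL6, NFKBIA and CCL20), and 5 were shared up (CXCL1, CXCL8, LCN2, ICAM1 and CXCL3). The promoters of BIRC3, an inhibitor of apoptosis that binds TRAF proteins and went opposite ways, and CXCL1, a neutrophil chemokine that rose in both, are shown with their NF-kB letters (searched on both strands as GGG, any 2 bases, then TTTCC) in capitals. The windows are the 250 bases before the RefSeq start in GRCh38.p14 (BIRC3 at chr11:102317234-102317483, plus strand; CXCL1 at chr4:73869143-73869392, plus strand), 5′ to 3′.
BIRC3: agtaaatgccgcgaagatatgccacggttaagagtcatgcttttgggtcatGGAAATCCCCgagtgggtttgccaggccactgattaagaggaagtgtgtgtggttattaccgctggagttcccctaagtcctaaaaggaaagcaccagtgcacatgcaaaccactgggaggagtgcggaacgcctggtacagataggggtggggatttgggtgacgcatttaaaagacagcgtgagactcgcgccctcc
CXCL1: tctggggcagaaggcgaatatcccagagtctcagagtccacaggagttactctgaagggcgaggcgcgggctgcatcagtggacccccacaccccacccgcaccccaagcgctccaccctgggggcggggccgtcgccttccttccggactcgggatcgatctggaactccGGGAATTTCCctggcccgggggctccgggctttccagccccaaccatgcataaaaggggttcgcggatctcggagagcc
The match lay 199 bases before the start in BIRC3 and 79 in CXCL1. These letters stood in 10 of 22 list members with a RefSeq promoter (45.5%), against 1.88% of promoters of tested genes, in 4 of the 5 opposite members (BIRC3, CCL20, IL6 and NFKBIA) and in 2 of the 5 shared ones (CXCL1 and CXCL3). BIRC3 was at 35.1 and 42.5 CPM in wild type, 181 and 168 in knockout, 37.3 and 42.2 in shRNA control, and 15 and 15.5 in knockdown. The controls overlapped, and BIRC3 rose by 2.17 ± 0.09 and fell by 1.38 ± 0.10 (difference 3.55 ± 0.13, adjusted p = 9.75e-09), although its chromosome neighbours had a median difference of -0.73. IL6, an inflammatory cytokine, was at 70.1 and 65.9, 89.2 and 89.4, 96.9 and 93, and 24.6 and 21.1 CPM in the same order. The main movement of IL6 was its fall of 2.05 ± 0.08 in knockdown, beside a rise of 0.39 ± 0.07 in knockout that stayed below the level of the shRNA control. NFKBIA had a difference of 1.75 ± 0.18 (adjusted p = 2.18e-05). TNF was at 2.65 and 2.64, 8.28 and 8.75, 2.75 and 2.68, and 1.54 and 0.935 CPM (difference 2.81 ± 0.31), and its fall was not called without knockdown replicate 2 (-0.81, adjusted p = 0.0594). CCL20 held 1 count in the knockdown libraries against 41 in shRNA control (ratio 37.8, 95% counting interval 6.41 to 1527); its calls were lost without knockout replicate 1 (adjusted p = 0.0639), shRNA control replicate 2 (0.0502), knockdown replicate 1 (0.0517) or knockdown replicate 2 (0.102). CXCL1 was at 1.82 and 1.85 CPM in wild type, 22.6 and 22.5 in knockout, 3.65 and 3.27 in shRNA control, and 4.76 and 4.77 in knockdown. It rose by 3.62 ± 0.14 in knockout and by 0.46 ± 0.13 in knockdown (difference 3.15 ± 0.19, adjusted p = 4.23e-07). CXCL8 and LCN2 also rose in both and more in knockout (differences 1.39 ± 0.21 and 1.61 ± 0.22), and ICAM1, an adhesion molecule for leukocytes, rose by 0.47 ± 0.07 and by 0.39 ± 0.07 (95% interval of the difference -0.14 to 0.29). TNFAIP3, the A20 inhibitor of the pathway, was at 16.9 and 19.3, 20 and 16.8, 22.2 and 21.1, and 7.53 and 7.61 CPM, and only its fall of 1.51 ± 0.11 in knockdown was called.

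**Figure D5:**
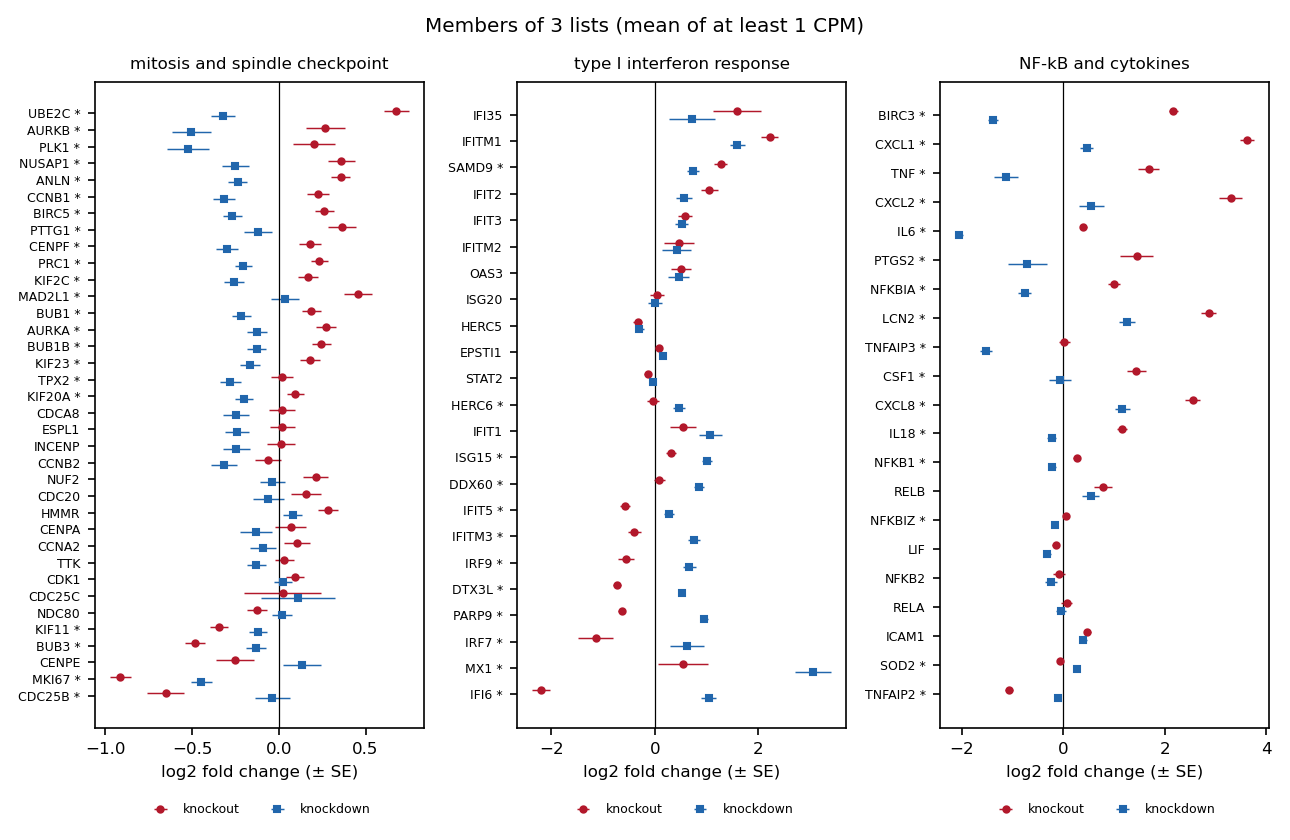
Knockout effect (circles) and knockdown effect (squares) in log2 units ± SE for the reported members of 3 lists with a mean of at least 1 CPM, ordered by the difference, with an asterisk where the difference was called. BIRC3 lies at 2.17 against -1.38 and IFI6 at -2.19 against 1.04, while the mitotic genes lie mostly within 1 log2 unit of 0.

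Genes of the basement membrane and the integrins that bind it had the highest share of called differences, 25 of 30 (83.3%), with the knockout effect higher in 10 and lower in 15. In knockout 11 were up and 13 down, and in knockdown 12 were up and 6 down. ITGA2, the collagen-binding integrin alpha 2, was at 72.3 and 70.4 CPM in wild type, 32.8 and 31.2 in knockout, 26.9 and 28.7 in shRNA control, and 92.8 and 92.7 in knockdown. It fell by 1.16 ± 0.06 and rose by 1.74 ± 0.06 (difference -2.90 ± 0.09, adjusted p = 1.52e-09), from control levels that differed by more than either pair's spread. LAMC1, a laminin gamma chain, and the collagen COL4A3 were also down in knockout and up in knockdown, with differences of -0.58 ± 0.08 and -2.10 ± 0.25. The fall of LAMC1 was not called without knockout replicate 2 (-0.13, adjusted p = 0.151). ITGB8, which activates latent TGF-beta, went the other way, up by 1.32 ± 0.06 and down by 0.30 ± 0.05. HSPG2, the heparan sulfate proteoglycan perlecan, was at 5.33 and 7.46 CPM in wild type, 5.84 and 6.61 in knockout, 6.28 and 5.78 in shRNA control, and 51.7 and 51.4 in knockdown. Its rise of 3.10 ± 0.13 was seen in the knockdown pair, with the other 6 libraries overlapping (difference -3.14 ± 0.20, adjusted p = 4.89e-07). LAMA4, a laminin alpha chain, held 1 count in the wild-type libraries against 2227 in knockout (ratio 1543, 95% counting interval 276.6 to 60970); its rise in knockdown, 2.16 ± 0.51, was not called without shRNA control replicate 1 (1.40, adjusted p = 0.0795) or knockdown replicate 1 (1.95, 0.0957) and was 4.27 without shRNA control replicate 2, and its difference not without shRNA control replicate 2 (adjusted p = 0.0738).

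Among epithelial and lineage genes with a called difference, most had the lower effect in knockout. Of 33 epithelial junction and keratin genes the difference was called in 17, higher in 3 and lower in 14, and of 19 ovarian clear cell and Müllerian markers in 12, higher in 3 and lower in 9. CDH1, the epithelial cadherin E-cadherin, was among the 3 that went the other way. It was at 151 and 152 CPM in wild type and 301 and 290 in knockout, and rose by 0.96 ± 0.05 (difference 0.99 ± 0.07, adjusted p = 1.59e-06). ST14, the membrane protease matriptase, was at 50.9 and 47.2 CPM in wild type, 16.3 and 15 in knockout, 63.2 and 61.5 in shRNA control, and 187 and 185 in knockdown (difference -3.23 ± 0.09, adjusted p = 1.12e-09). GRHL1, an epithelial transcription factor, had a difference of -1.10 ± 0.11. CGN (cingulin) and PKP2 (plakophilin 2) had differences of -0.89 ± 0.15 and -0.77 ± 0.13, but their rises in knockdown (0.37 ± 0.11 and 0.30 ± 0.09) lost the call without any one of the knockout or hairpin libraries (adjusted p = 0.0583 to 0.269). CLDN16, a claudin of the renal tubule, went the other way, at 253 and 228, 723 and 712, 142 and 135, and 63.1 and 62.6 CPM (difference 2.72 ± 0.09). SPP1, the secreted phosphoprotein osteopontin, was at 1952 and 1704 CPM in wild type, 827 and 803 in knockout, 2331 and 2363 in shRNA control, and 3243 and 3198 in knockdown (difference -1.62 ± 0.08). TFPI2, a protease inhibitor used as a clear cell marker, was at 692 and 664, 320 and 314, 474 and 488, and 928 and 944 CPM (difference -2.06 ± 0.07, adjusted p = 3.14e-09). FOLR1, the folate receptor alpha, had a difference of -2.10 ± 0.17 and NAPSA, the protease napsin A, one of -1.60 ± 0.31. NAPSA was at 5.36 to 5.62 CPM in wild type, 2.82 to 3.68 in knockout, 1.61 to 2.12 in shRNA control, and 3.12 to 3.61 in knockdown. Its knockout and knockdown levels overlapped, and its control groups stood apart. For NAPSA the fall was not called without wild-type replicate 1 (-0.72, adjusted p = 0.0512) or knockout replicate 1 (-0.57, 0.121), nor the rise without shRNA control replicate 1 (0.66, 0.193), knockdown replicate 1 (0.94, 0.0578) or knockdown replicate 2 (0.74, 0.145). EMX2, a homeobox factor of the urogenital tract, was up in knockout and down in knockdown (difference 1.67 ± 0.26), the fall not called without shRNA control replicate 2 (-0.75, adjusted p = 0.0779) or knockdown replicate 1 (-0.73, 0.0767). Of 13 tested genes of the S100 list, drawn up from S100 calcium-binding proteins and the S100P partner S100PBP, the difference was called in 7, lower in knockout in all 7. S100A9, a subunit of calprotectin, was at 13.3 and 8.04, 1.07 and 0.836, 5.76 and 6.23, and 16.5 and 15.8 CPM (difference -4.91 ± 0.32, adjusted p = 7.35e-07). S100P was also opposite (difference -3.82 ± 0.66), with its fall not called without wild-type replicate 2 (-1.37, adjusted p = 0.201), knockout replicate 1 (-1.91, 0.0862) or knockout replicate 2 (-2.24, 0.0654), and its rise not without knockdown replicate 1 (1.55, 0.0502). Of 14 mesenchymal genes the difference was called in 5. VIM, the intermediate filament vimentin, was at 5.04 and 6.37 CPM in wild type, 52.5 and 45.5 in knockout, 38.3 and 32.4 in shRNA control, and 19.5 and 19.8 in knockdown. VIM rose by 3.09 ± 0.13 and fell by 0.85 ± 0.11 (difference 3.94 ± 0.17), and its control groups stood far apart, the shRNA control nearer to the knockout than to wild type.

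Signalling and stress lists held both directions. Of 26 genes of ERK feedback and growth factor signalling the difference was called in 16, higher in 12 and lower in 4. SPRY2, an inhibitor of receptor tyrosine kinase signals, was at 32.1 and 30.7 CPM in wild type, 51.4 and 53.8 in knockout, 23.7 and 20.5 in shRNA control, and 7.72 and 8.84 in knockdown (difference 2.16 ± 0.13, adjusted p = 4.23e-07). AREG, the EGF receptor ligand amphiregulin, had a difference of 1.57 ± 0.07, and the receptor ERBB2 one of -0.84 ± 0.09; the rise of ERBB2 in knockdown was not called without shRNA control replicate 1 (0.30, adjusted p = 0.0696) or knockdown replicate 2 (0.26, 0.0737). Of 21 YAP and TGF-beta targets the difference was called in 13, higher in 6 and lower in 7. ANKRD1, a nuclear ankyrin repeat protein and YAP target, was at 3.6 and 4.64, 19.5 and 19.5, 4.7 and 7.82, and 1.77 and 1.45 CPM (difference 4.20 ± 0.33), and AXL, of the same list, is described above. ID2, an inhibitor of helix-loop-helix factors, was down in knockout and up in knockdown (difference -0.81 ± 0.08), the rise not called without shRNA control replicate 1 (0.20, adjusted p = 0.143), knockdown replicate 1 (0.26, 0.0664) or knockdown replicate 2 (0.25, 0.0889). Of 28 genes of the unfolded protein and amino acid stress responses the difference was called in 16, higher in 7 and lower in 9. ERN1, the endoplasmic reticulum stress sensor IRE1, was at 54 and 55, 75.5 and 76.1, 57.1 and 52.3, and 34.5 and 35.8 CPM (difference 1.11 ± 0.09, adjusted p = 3.47e-06). SLC7A11, the cystine importer, and DDIT4, an inhibitor of mTORC1, were up in knockout and down in knockdown as well (differences 1.96 ± 0.13 and 1.83 ± 0.15), and so were HERPUD1 and PSPH (1.28 ± 0.12 and 1.19 ± 0.13). XBP1, the factor that IRE1 activates by splicing, went the other way, with a difference of -0.93 ± 0.08, and so did ATF5 (-1.53 ± 0.21). Calls in 1 effect were lost for HERPUD1 without shRNA control replicate 2 (-0.32, adjusted p = 0.0892) or knockdown replicate 1 (-0.35, 0.073), for PSPH without either shRNA control library or knockdown replicate 1 (-0.40 to -0.28, 0.0705 to 0.175), for XBP1 without wild-type replicate 2 or either knockout library (-0.22 to -0.15, 0.0638 to 0.146), and for ATF5 without wild-type replicate 1 (-0.53, 0.0513) or knockout replicate 2 (-0.60, 0.0524). Of 30 genes of cholesterol and fatty acid synthesis the difference was called in 17, higher in 10 and lower in 7. INSIG1, which holds the sterol sensor in the endoplasmic reticulum, was at 69.5 and 69.9, 93.7 and 100.4, 76.5 and 84.5, and 42.8 and 41 CPM (difference 1.42 ± 0.09, adjusted p = 7.46e-07). HSD17B7 and STARD4 were also up in knockout and down in knockdown (differences 1.27 ± 0.15 and 0.56 ± 0.08). The rise of HSD17B7 was not called without wild-type replicate 2 (0.15, adjusted p = 0.103), knockout replicate 1 (0.35, 0.0724) or knockout replicate 2 (0.33, 0.0988), nor that of STARD4 without wild-type replicate 1 (0.18, 0.0563), knockout replicate 1 (0.19, 0.0882) or knockout replicate 2 (0.18, 0.108).

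Subunits of the targeted complexes themselves moved in mixed directions. Of 26 SWI/SNF subunits the difference was called in 12 (46.2%), higher in 6 and lower in 6. Of 25 condensin and cohesin genes it was called in 8 (32%), higher in 5 and lower in 3. The condensin and cohesin share was near the 26.3% of all genes tested and the 30.9% of protein-coding genes. BCL7A and SMARCD1, accessory subunits of BAF, were up in knockout and down in knockdown, with differences of 0.71 ± 0.11 and 0.97 ± 0.15. The fall of BCL7A was not called without shRNA control replicate 2 (-0.35, adjusted p = 0.0776) or knockdown replicate 1 (-0.37, 0.0622), its rise not without knockout replicate 2 (0.29, 0.0758), and the fall of SMARCD1 not without shRNA control replicate 1 (-0.40, 0.107) or knockdown replicate 2 (-0.32, 0.133). STAG1, a cohesin subunit, and SMC4, the core ATPase of both condensins, were called down in both losses, as was NCAPH2, but 0 of these 3 genes kept both calls with each library left out in turn. SMC4 was at 521 and 523 CPM in wild type, 431 and 461 in knockout, 370 and 376 in shRNA control, and 317 and 338 in knockdown (difference -0.04, 95% interval -0.21 to 0.13). STAG1 fell by 0.34 ± 0.06 and by 0.25 ± 0.06 (95% interval of the difference -0.27 to 0.09).

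The knockout effect, and with it the difference, also varied along chromosomes more than the knockdown effect did. The median difference over the 20 tested genes on each side of a gene ran from -0.86 to 0.66 over 12758 genes (5th to 95th percentile -0.34 to 0.22). The same windows ran from -0.81 to 0.73 for the knockout effect and from -0.24 to 0.25 for the knockdown effect. By whole chromosome, called differences were most one-sided on chromosome 18 (13 higher, 49 lower, median -0.20), chromosome 14 (48 and 125, median -0.16), chromosome 20 (31 and 80, median -0.08), chromosome 10 (67 and 159, median -0.18) and chromosome 11 (76 and 161, median -0.14). The other direction prevailed on chromosome 4 (134 higher, 72 lower, median 0.11), chromosome 3 (155 and 89, median 0.08) and chromosome 12 (144 and 88, median 0.08). Chromosome 13 had the highest share of called genes, 48%. Among genes named above, the window median was -0.74 at MKI67, -0.63 at HSPG2 and -0.42 at both ANKRD1 and SPRY2, and the part of the neighbourhood in these results was not tested.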

How the data were processed

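RNA-seq of RMG1 cells gave 8 libraries, in 4 groups of 2, as the sample labels give them. RNA was, per the labels' protocols, treated with DNase and libraries were made with the TruSeq Total RNA kit. The deposited table by the authors lists expected counts for each Ensembl gene ID, 1 column a library, unpooled. Per the submitters' processing notes, the tools were Bowtie2 and RSEM 1.2.12 and the build hg19; for the annotation release and strand setting the entry is not given in the sources used here. All values were already whole, so rounding changed none. RSEM divides reads that match several genes, so near-identical copies and overlapping genes are uncertain.

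Genes were fitted in R 4.3.3 with edgeR 4.0.16: filterByExpr by group (16657 genes kept), TMM scaling, and a quasi-likelihood F-test on group means over all 8 libraries (4 residual degrees of freedom, common biological coefficient of variation 7.74%), which shares 1 estimate of spread. The difference is (knockout minus wild type) minus (knockdown minus shRNA control). Adjusted p-values are Benjamini-Hochberg over all genes, with a threshold of 0.05. A shared or opposite gene has both effects called. Levels are CPM after TMM scaling. A fold against a group with 0 counts in both libraries is a lower bound, computed with 3 counts for that whole group; with 1 to 3 counts the ratio has an exact 95% interval. Floor and interval reflect counting error alone, because PCR copies are not independent molecules.

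Symbols came from a table of Ensembl IDs (51959 IDs) and GENCODE 29 (342 further IDs), leaving 5435 IDs without one; 7 list genes had no match. Promoters are from RefSeq (GRCh38.p14), matched by symbol. Because the authors' build was hg19, no coordinates of their features are given.

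The contrast, gene lists and rule for named genes were chosen with earlier results of these data known. Named were ARID1A and NCAPH2 and, among protein-coding genes averaging 1 CPM or more whose libraries did not overlap in each called effect, the 6 widest opposite genes in each direction, the 6 shared up and 6 shared down with the largest smaller effect, the 4 highest and 4 lowest differences among genes called in 1 effect, the extreme members of each list, and its opposite members. In gene lists with a member at 0 in a group, medians use fitted values. A few genes that these rules would name are not reported here. Alternatives were other scaling, filters, DESeq2 1.42.0, limma voom (limma 3.58.1), a replicate block, a stricter threshold, and leaving out each library or the 3 genes with the most counts.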

Additional observations from a re-analysis of the deposited data

How the results depend on the processing

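The number of genes with a called difference (4381) lay between 3803 and 4761 under other scaling (4358 with DESeq2 size factors, 4366 with upper quartile), no low-count filter (4761), a stricter filter (4240), DESeq2 (3803) and limma voom (4455). At an adjusted p under 0.01 it was 2695 (1242 higher, 1453 lower), with 142 shared up, 268 shared down, 189 opposite with knockout up and 183 opposite with knockout down. Leaving out each library gave 3255 to 4789 called differences (1508 to 2326 higher, 1732 to 2463 lower), 153 to 472 shared up, 273 to 582 shared down, 204 to 445 opposite with knockout up and 211 to 417 opposite with knockout down. Deviations of same-numbered libraries correlated at -0.06 to 0.08 over 13060 genes. With 2 libraries per group, such values cannot show whether same-numbered libraries shared a batch. A replicate block gave 4209 called differences (1967 higher, 2242 lower), 311 shared up, 440 shared down, 330 opposite with knockout up and 333 opposite with knockout down. Subtracting no controls (knockout minus knockdown, chosen after seeing the data) called 7208 genes (3590 higher, 3618 lower), of which 3720 were among the 4381. Of the differences of genes named by rule, 13 lost their call that way without turning sign, and 2 gained one. NAPSA (-0.05) and PAK3 (-2.26) were among those that lost it. In that comparison the value turned sign for ATF3 (-0.14), CDKN1A (0.34), DUSP6 (0.28), EMP1 (0.52), FN1 (0.69), KRT222 (-2.72), SLC10A2 (0.70), SLC2A2 (1.83) and TRIM34 (-0.77). KRT222 also turned with limma voom (-1.22) and, over the fits that left out 1 library, lay between -2.72 (without shRNA control replicate 1) and 3.09 (without shRNA control replicate 2). SLC2A2 lay between -1.10 (without knockdown replicate 1) and 0.16 (without knockdown replicate 2). Of the calls for genes named by rule, 14 missed the threshold with DESeq2, 9 with limma voom, 12 with the block and 7 with no low-count filter. With DESeq2 they included the ARID1A difference (adjusted p = 0.0704), the IFITM3 fall (0.109) and the PKP2 rise (0.113). With limma voom they included the AQP1 and LBP differences (0.0699 and 0.0937) and the PSG8 and S100P falls (0.11 and 0.112). With the block they included the ARID1A and AQP1 differences (0.0597 and 0.0522) and the CENPF, KIF2C and PKP2 rises (0.0584, 0.0526 and 0.0594). With no low-count filter they included the IFITM3 fall (0.0746) and the KIF2C, PKP2 and STARD4 rises (0.0514, 0.0623 and 0.0573). List medians near 0 turned with upper quartile scaling for cholesterol and fatty acid synthesis (0.0179) and the unfolded protein response (0.0075). The median difference of all genes was 0.00238 with DESeq2 size factors and 0.0206 with upper quartile scaling. With 2 libraries per group, genes below a few CPM have wide errors.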

Other observations

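Further lists described the same way held large differences for few members. Among 25 p53 targets, GDF15, a stress-induced cytokine, was at 48.7 and 44.4 CPM in wild type, 82.6 and 79.9 in knockout, 23 and 23.5 in shRNA control, and 14.2 and 13.1 in knockdown, so it moved in opposite directions from control levels that were themselves apart (difference 1.57 ± 0.10, adjusted p = 7.58e-07 by edgeR). TNFRSF10B, the death receptor DR5, did the same (difference 0.82 ± 0.09), and GADD45A, a growth arrest gene, the reverse (-1.05 ± 0.09). CDKN1A was also down in knockout (-0.26, adjusted p = 0.0333 by edgeR) and up in knockdown (0.30, adjusted p = 0.0354), with a difference of -0.56. Each of these 2 effects lost its call in 6 of the 8 fits with a library left out, so its place in the opposite class did not hold. With DESeq2 the fall was not called (adjusted p = 0.0548). Its small fall was -0.12 without wild-type replicate 2. Of 27 hypoxia and glycolysis genes the difference was called in 16, higher in 6 and lower in 10. P4HA1, a collagen prolyl hydroxylase, was at 51.9 and 54, 49.9 and 52.2, 118 and 119, and 355 and 352 CPM in the same order, with a called rise in knockdown only (1.58 ± 0.05). Of 24 NRF2 targets the difference was called in 17, higher in 9 and lower in 8. AKR1C1, an aldo-keto reductase that inactivates progesterone, rose in both, by 3.17 ± 0.13 in knockout and by 0.77 ± 0.13 in knockdown (difference 2.40 ± 0.18), while HMOX1, heme oxygenase, was lower in knockout by 1.17 ± 0.08 on the log2 scale (difference -1.04 ± 0.11).

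Of 21 AP-1 and immediate early genes the difference was called in 10, higher in 7 and lower in 3. IER3 was at 449 and 415 CPM in wild type, 646 and 657 in knockout, 420 and 418 in shRNA control, and 337 and 331 in knockdown (difference 0.92 ± 0.07, adjusted p = 3.53e-06), and DUSP5, a phosphatase that acts on ERK, had a difference of 0.86 ± 0.09. Of 15 R-spondin and WNT feedback genes the difference was called in 9, higher in 4 and lower in 5. Besides RSPO3 these included the ligands WNT7B (0.413 and 0.326, 2.85 and 2.74, 0.774 and 0.503, and 0.252 and 0.387 CPM; difference 3.90 ± 0.59) and WNT7A (difference -1.37 ± 0.13). Of 27 polycomb subunits the difference was called in 9 (33.3%, against 26.3% of all genes tested and 30.9% of protein-coding genes), higher in 5 and lower in 4. PHC2 had a difference of -0.92 ± 0.12, and PCGF5, down in knockout and up in knockdown, one of -0.77 ± 0.09. Marker lists of other cell types had 2 fibroblast, 5 leukocyte and 1 endothelial genes tested. Of the leukocyte genes CD14 held 1 count in knockout against 21 in wild type (ratio 30.3, 95% counting interval 4.88 to 1254), and PTPRC, at most 0.451 CPM in the other groups, was at 1.98 and 2.25 CPM in knockout.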
